A study of Homo sapiens with 12 samples.

Results

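MYC and the genes that build ribosomes were described in MD901 cells carrying hairpins against CREBBP. MD901 is an established human line from a diffuse large B-cell lymphoma (germinal centre type), labelled CREBBP wild type, and CREBBP encodes an acetyltransferase of histones and other proteins. The 37 listed genes comprised MYC, factors of RNA polymerase I transcription, core proteins of small nucleolar ribonucleoproteins, nucleolar chaperones and assembly factors of the small (40S) and large (60S) ribosomal subunits. Each gene was represented by the row of the deposited RNA-seq table that carried its symbol, taking the row of highest mean on a primary chromosome, and was kept at a mean of at least 1 FPKM over the 12 libraries. FPKM counts fragments per length of transcript and per number of mapped fragments, so that levels can be compared between genes. Of the 37 genes, 35 were kept, among 24181 rows in all and 11757 rows that reached a mean of 1 FPKM. POLR1A and NOP56 matched no row and are not described further.

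All cells grew in IMDM with 10% serum and carried a hairpin. The control cells carried a scramble hairpin, and the others carried shCREBBP.1027, shCREBBP.3753 or shCREBBP.572, with 3 libraries in each of the 4 groups. The first hairpin is named shCREBBP.1027 in the titles and shCREBBP.11027 in another label. Libraries were made from RNA over 200 nt by a stranded total RNA protocol with ribosomal RNA removed. The labels do not say whether the 3 libraries of a group came from separate cultures or transductions, so p-values rest on a spread that may be technical. The measurement is RNA of bulk cultures, in which fewer cells expressing a gene and less RNA per cell cannot be told apart.

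A few facts of the libraries bear on every result below. CREBBP, the hairpins' target, was 13.7, 7.1 and 5.82 FPKM in scramble, 11.4, 11.7 and 12.6 FPKM with shCREBBP.1027, 5.92, 6.16 and 6.1 FPKM with shCREBBP.3753 and 7.99, 7.53 and 6.91 FPKM with shCREBBP.572. Over all libraries it was not called in any group, with log2 differences of 0.47, -0.40 and -0.14 (limma adjusted p = 0.104, 0.177 and 0.697). The differences moved with the control libraries: without scramble replicate 1 they were 0.80 (limma adjusted p = 8.3e-05), -0.07 and 0.19 (limma adjusted p = 0.59 and 0.171), and CREBBP was called lower with shCREBBP.3753 when scramble replicate 3 was left out (-0.63, limma adjusted p = 0.0394). Between hairpins CREBBP differed (limma F test adjusted p = 0.0116). Against shCREBBP.1027 it was -0.87 with shCREBBP.3753 (limma adjusted p = 0.0068) and -0.61 with shCREBBP.572 (limma adjusted p = 0.0385). Directions are therefore those of libraries so labelled. EP300, the closest relative of CREBBP, was 24.6, 10.7 and 8.49 FPKM in scramble and was called lower with shCREBBP.3753 (log2 difference -0.90, limma adjusted p = 0.0349). That difference was -0.47 without scramble replicate 1 (limma adjusted p = 0.0387), and EP300 was then called higher with shCREBBP.1027 (0.44, limma adjusted p = 0.0376) and shCREBBP.572 (0.64, limma adjusted p = 0.012). The call with shCREBBP.3753 was lost without any 1 of that hairpin's libraries.

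The control libraries differed among themselves. Scramble replicate 3 summed to 4978528 FPKM, against 538076 to 722976 FPKM in the other 11 libraries, and held 6 rows over 100000 FPKM where each of the others held at most 1. Over the rows tested, log2 differences between scramble libraries had an SD of 0.62 to 0.85, and those between libraries of 1 hairpin an SD of 0.36 to 0.51. The number of reads is unknown. Steps in the low values gave depths relative to scramble replicate 1 of 1.11 to 2.01 in 10 of the other libraries, and of 1.8 or a whole multiple of it in scramble replicate 3. Of 9 B-cell markers, 8 had a mean of at least 1 FPKM, and their summed level was 1207 to 1587 FPKM in scramble, 1230 to 1352 FPKM with shCREBBP.3753, 863 to 893 FPKM with shCREBBP.1027 and 861 to 872 FPKM with shCREBBP.572. CD74 alone gave 857 to 1168 FPKM of the sum in scramble and 527 to 556 FPKM with shCREBBP.1027, and the markers did not move alike: CD79A was 54.9 to 82.9 FPKM in scramble, 83.1 to 90.2 FPKM with shCREBBP.1027 and 111.6 to 126.5 FPKM with shCREBBP.3753. The 12 T and NK cell markers summed to at most 3.43 FPKM in any library, the 10 myeloid markers to at most 4.99 FPKM and the 10 fibroblast and epithelial markers to at most 8.12 FPKM, and CD3D, S100A8, COL3A1 and EPCAM were listed at 0 throughout. The part of the B-cell marker levels in the results was not tested.

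MYC is a transcription factor that binds DNA as a dimer with MAX, most tightly at the E-box CACGTG, and raises the output of ribosomes by acting on genes of all steps of their making. Ribosomal RNA is copied from its repeated genes by RNA polymerase I in the nucleolus, is modified under the guidance of small nucleolar RNAs, and is cut and folded by a large set of assembly factors into the 40S and 60S subunits. Most germinal centre B cells hold little MYC, while lymphomas that arise from them often keep it high and depend on ribosome production for growth.

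The letters of the E-box were searched in the RefSeq promoter table (GRCh38.p14), within the 250 bases before each gene's start and on both strands. Of the 35 kept genes, 28 had a promoter in the table. CACGTG stood in the promoter of 4 of these 28 genes (14.3%) and in 7.73% of all 27305 genes of the table, and the variant CACGCG stood in 6 of 28 (21.4%) and in 11.5% of all genes. Both are descriptions of letters, and the motifs do not overlap each other as written. All 4 promoters holding CACGTG are shown. Of their genes, DDX21, UTP20 and the row NAT10 shares with CAPRIN1 were called lower with at least 1 hairpin. LYAR was called with none over all libraries. Of all 35 kept genes, 21 were called with at least 1 hairpin, lower or higher. The matching share of all rows was not counted, so these calls cannot be set against it. A link of the E-box to the calls was not tested. Each line gives the 100 bases before the start, 5′ to 3′ on the gene's strand, with the E-box in capitals. The intervals are chr10:68956547-68956646 on the plus strand for DDX21, chr12:101280005-101280104 on the plus strand for UTP20, chr11:34105529-34105628 on the plus strand for NAT10 and chr4:4290022-4290121 on the minus strand for LYAR.
DDX21: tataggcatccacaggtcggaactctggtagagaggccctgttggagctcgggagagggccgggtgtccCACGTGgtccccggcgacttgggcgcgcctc
UTP20: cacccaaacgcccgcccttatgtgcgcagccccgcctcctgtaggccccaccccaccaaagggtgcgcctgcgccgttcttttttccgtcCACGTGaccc
NAT10: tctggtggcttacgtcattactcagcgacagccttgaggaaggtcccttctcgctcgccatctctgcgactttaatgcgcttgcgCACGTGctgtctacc
LYAR: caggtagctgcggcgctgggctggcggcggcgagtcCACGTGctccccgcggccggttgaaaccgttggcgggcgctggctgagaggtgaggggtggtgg
The E-box began 31 bases before the start in DDX21, 10 bases in UTP20, 15 bases in NAT10 and 64 bases in LYAR.

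Against scramble, 10 of the 35 genes were lower and 3 higher with shCREBBP.1027, 10 lower and 2 higher with shCREBBP.3753, and 6 lower and none higher with shCREBBP.572. A gene was called at an adjusted p under 0.05 from limma on log2(FPKM + 1), adjusted by the Benjamini-Hochberg method over all 11757 rows, and every difference below is on that log2 scale. Of all rows, 22.7% were called lower and 16.5% higher with shCREBBP.1027, 13.2% lower and 16.1% higher with shCREBBP.3753, and 10.8% lower and 8.99% higher with shCREBBP.572. The median difference of the 35 genes, in the same order of hairpins, was -0.10, -0.10 and -0.14, where that of all rows was -0.03, 0.03 and 0.01. Those medians turn on the control libraries, at -0.18, -0.26 and -0.30 without scramble replicate 1, 0.004, 0.00079 and -0.08 without replicate 2, and -0.01, -0.03 and -0.07 without replicate 3. The 3 comparisons share the same scramble libraries. In all, 21 of the 35 genes were called with at least 1 hairpin and 14 with none. Of the 11757 rows, 4609, 3451 and 2323 were called with the same hairpins in turn. Rows called with at least 1 hairpin were not counted, so 21 of 35 cannot be set against a share of all rows.

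**Figure D1:**
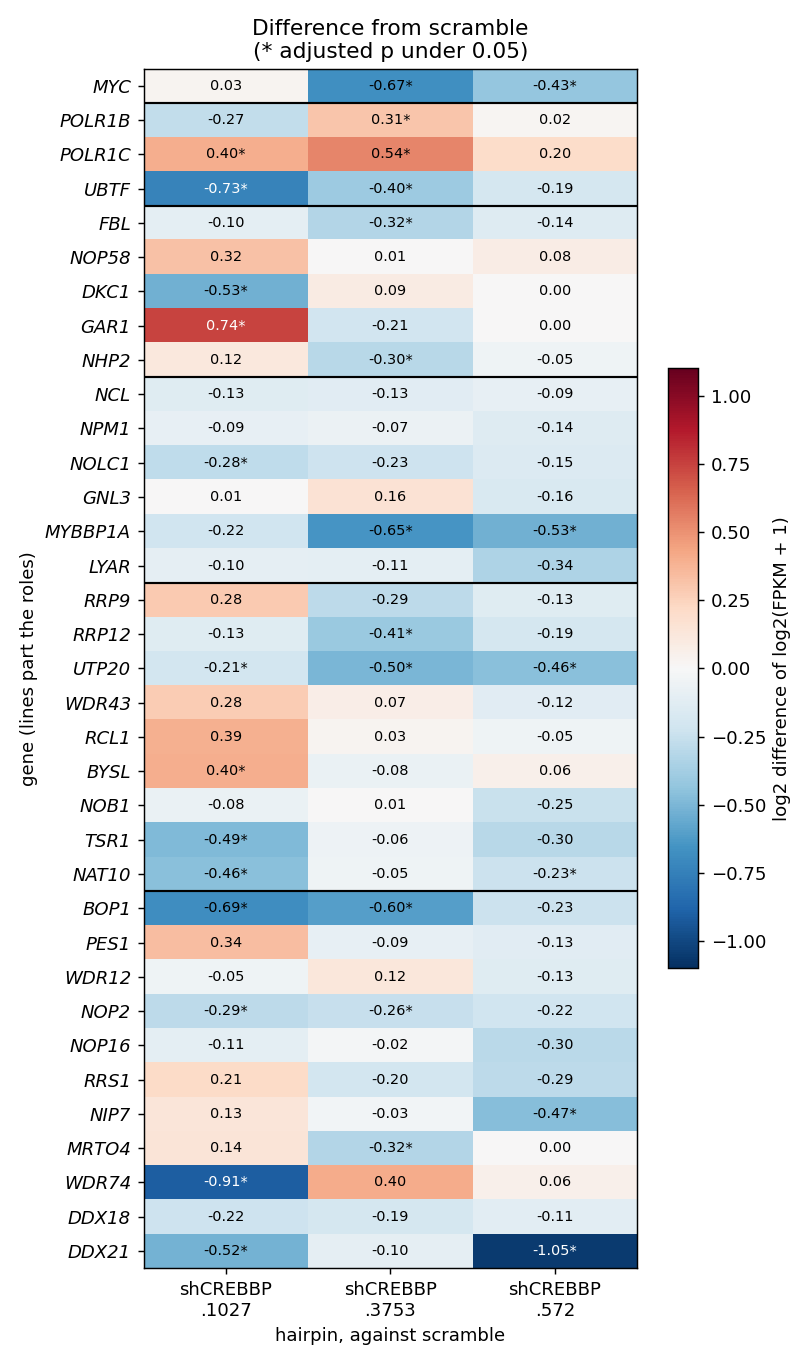
Difference from scramble of each of the 35 genes (rows, grouped by role) with each hairpin (columns), as a difference of log2(FPKM + 1); an asterisk marks a limma adjusted p under 0.05. Blue cells are lower than scramble and red cells higher: 10, 10 and 6 cells with an asterisk are blue and 3, 2 and 0 are red, from left to right.

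The level of the list in the control moved with each control library, and scramble replicate 1 stood apart from the others. Scramble replicate 1 lay below both other scramble libraries in 30 of the 35 genes (85.7%), against 53.9% of all rows, and above both in 2 of them. It lay below both in all 11 genes of 60S assembly and all 3 of RNA polymerase I transcription, while MYC lay between the other values. The median deviation of the 35 genes from their 12-library mean was -0.20 in scramble replicate 1 and 0.23 and 0.21 in the other scramble libraries. In the 9 hairpin libraries it was between -0.12 and 0.11, and the median over all rows stayed between -0.07 and 0.04 in every library. Without scramble replicate 1, 14 genes were lower and 3 higher with shCREBBP.1027 (26.9% and 16.7% of all rows), 20 lower and 1 higher with shCREBBP.3753 (15.9% and 14.5%), and 21 lower and none higher with shCREBBP.572 (15.7% and 9.7%). The part of this library in the results below is shown wherever it ends a call.

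**Figure D2:**
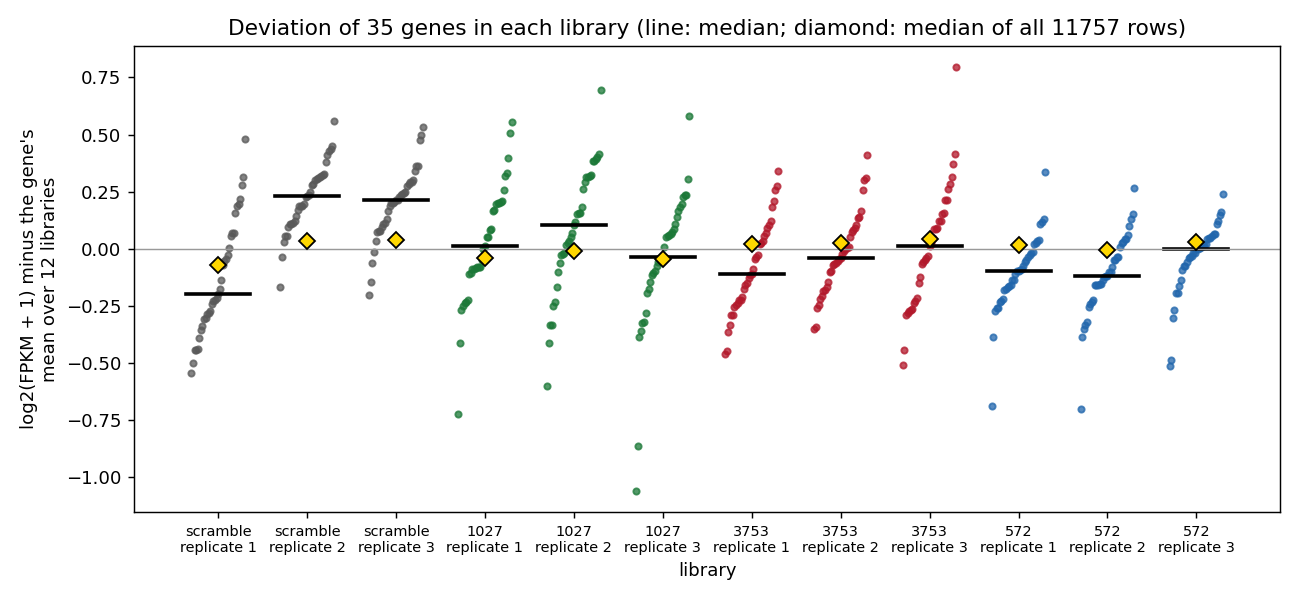
Deviation of log2(FPKM + 1) of each of the 35 genes from its mean over the 12 libraries, one column of points per library; the line is the median of the 35 genes and the diamond the median of all 11757 rows. The line lies at 0.23 and 0.21 in scramble replicates 2 and 3 and at -0.20 in scramble replicate 1, while the diamonds lie close to 0.

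The scaling also bore on the list with shCREBBP.1027. As deposited, 10 genes were lower and 3 higher, with 58% of the calls over all rows being lower. With median-of-ratios scaling 10 were lower and 10 higher (52.2% of all calls lower), and with quantile normalization 8 were lower and 11 higher (47.4% of all calls lower). The median of all rows moved by less than 0.1 on the log2 scale under both. Without scramble replicate 2 or 3, 6 and 5 genes were higher with this hairpin (15.5% and 16.1% of all rows). Genes called higher only in these fits are not named below, while genes called lower only without scramble replicate 1 are. With shCREBBP.3753, 12 and 13 genes were lower under the 2 scalings (15.9% and 15.4% of all rows) and 2 and 3 higher (16.3% and 18.5%). With shCREBBP.572, 11 and 10 were lower (12.5% and 11.6% of all rows), and none and 1 higher (9.93% and 12.5%).

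MYC (chromosome 8, 128747616 to 128755821, hg19) was lower with 2 of the 3 hairpins. Its level was 179, 183 and 171 FPKM in the scramble libraries, 185, 184 and 173 FPKM with shCREBBP.1027, 114, 116 and 103 FPKM with shCREBBP.3753 and 131, 136 and 129 FPKM with shCREBBP.572. All libraries of shCREBBP.3753 and shCREBBP.572 lay below all scramble libraries, and those of shCREBBP.1027 overlapped them. Mean MYC was 62.6% of the scramble mean with shCREBBP.3753 (log2 difference -0.67 ± 0.07 SE, limma adjusted p = 5.9e-05) and 74.3% with shCREBBP.572 (log2 difference -0.43 ± 0.07 SE, limma adjusted p = 0.00133). With shCREBBP.1027 the difference was 0.03 ± 0.07 SE (limma adjusted p = 0.778). The exact two-sided permutation test over 20 splits gave p = 0.1 with shCREBBP.3753 and with shCREBBP.572, the smallest that 3 libraries against 3 allow, and p = 0.5 with shCREBBP.1027. Both calls were kept in all 21 alternative fits, and without scramble replicate 1 the differences were -0.67 and -0.42.

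The hairpins also differed from each other in MYC (limma F test adjusted p = 2.6e-05). Libraries of shCREBBP.3753 and shCREBBP.572 lay below those of shCREBBP.1027 by 0.70 and 0.45 on the log2 scale (limma adjusted p = 1.5e-05 and 0.000305). Between the pair that was lower than scramble, shCREBBP.572 was higher than shCREBBP.3753 by 0.25 (limma adjusted p = 0.0166). That call was lost without shCREBBP.3753 replicate 3 (0.20, adjusted p = 0.075), without shCREBBP.572 replicate 2 (0.23, adjusted p = 0.0559) and with quantile normalization (0.28, adjusted p = 0.0539). In order of level, MYC was highest with shCREBBP.1027 and in scramble, which did not differ beyond their spread, then lower with shCREBBP.572 and lowest with shCREBBP.3753.

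**Figure D3:**
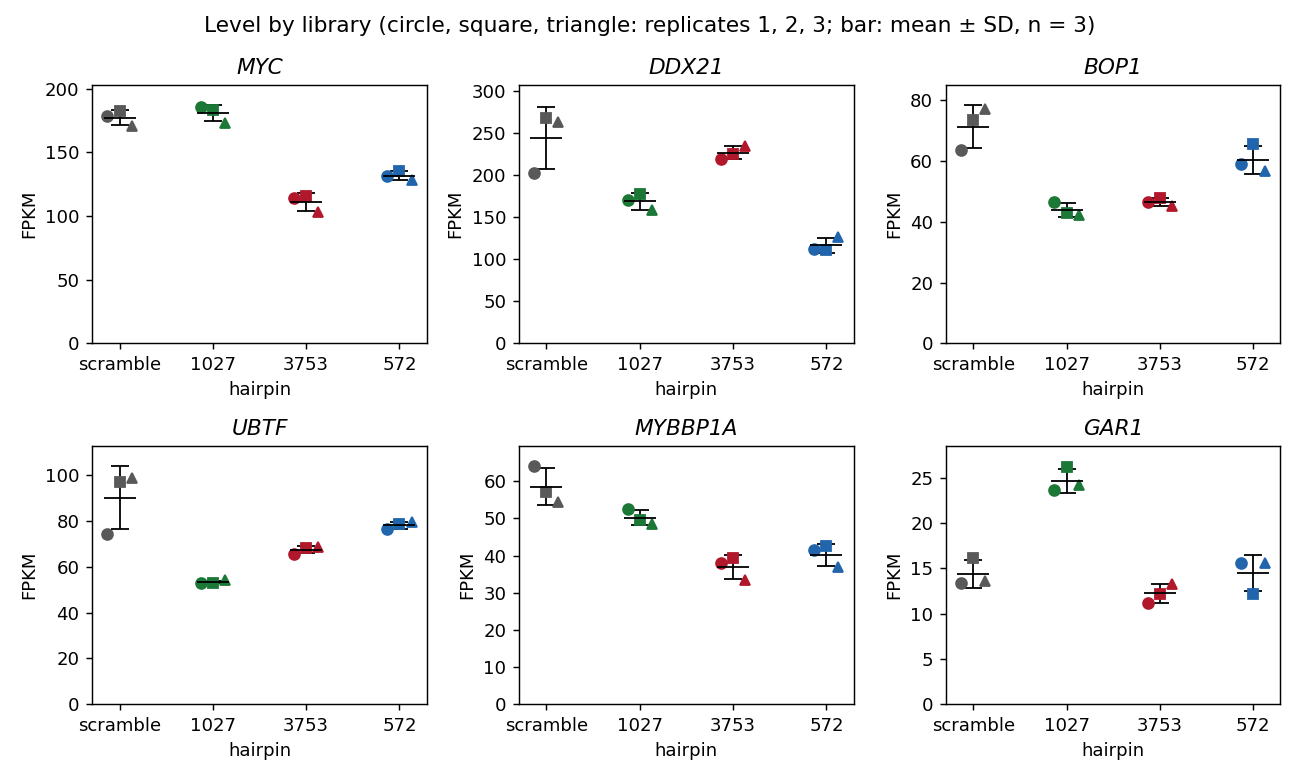
FPKM of 6 genes in each of the 12 libraries, by hairpin; circles, squares and triangles are replicates 1, 2 and 3, the long bar is the mean and the short bars are 1 SD (n = 3). MYC and MYBBP1A are lower with shCREBBP.3753 and shCREBBP.572, BOP1 and UBTF with shCREBBP.1027 and shCREBBP.3753, and DDX21 with shCREBBP.1027 and shCREBBP.572, while GAR1 is higher with shCREBBP.1027.

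In RNA polymerase I transcription, the 3 measured genes moved in different directions. UBTF, the factor that binds ribosomal RNA genes and keeps them open (chromosome 17, 42282401 to 42299448), was 74.2, 97.1 and 98.8 FPKM in scramble, 52.9, 53 and 54 FPKM with shCREBBP.1027, 65.5, 68.2 and 68.3 FPKM with shCREBBP.3753 and 76.3, 78.7 and 79.3 FPKM with shCREBBP.572. The 3 libraries of shCREBBP.1027 were the lowest of all 12, and those of shCREBBP.572 lay between scramble replicate 1 and the other scramble libraries. UBTF fell with shCREBBP.1027 to 59.2% of the scramble mean (log2 difference -0.73 ± 0.10 SE, limma adjusted p = 0.000133) and with shCREBBP.3753 to 74.8% (log2 difference -0.40 ± 0.10 SE, limma adjusted p = 0.00915). The call with shCREBBP.3753 was lost in the fit of the 2 groups alone (limma adjusted p = 0.0681). UBTF was also called lower with shCREBBP.572 when scramble replicate 1 was left out (-0.32, limma adjusted p = 0.000634).

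POLR1C, a subunit shared by RNA polymerases I and III (chromosome 6, 43484777 to 43489455), was 27.3, 35.7 and 36.3 FPKM in scramble, 42.7, 44.8 and 43.5 FPKM with shCREBBP.1027, 45.8, 49.8 and 49.2 FPKM with shCREBBP.3753 and 35.4, 37 and 41.5 FPKM with shCREBBP.572. It rose with shCREBBP.1027 (log2 difference 0.40 ± 0.10 SE, limma adjusted p = 0.0102) and with shCREBBP.3753 (log2 difference 0.54 ± 0.10 SE, limma adjusted p = 0.00287), whose libraries all exceeded scramble. These differences were 0.27 and 0.41 without scramble replicate 1, both still called, and in the fit of 2 groups alone the first had an adjusted p of 0.052. POLR1B, a large subunit of the catalytic core of RNA polymerase I (chromosome 2, 113299492 to 113337619), was 22.8, 30.1 and 30 FPKM in scramble, 23.4, 21.8 and 22.6 FPKM with shCREBBP.1027, 32.2, 33.3 and 37.3 FPKM with shCREBBP.3753 and 28.3, 28.3 and 27 FPKM with shCREBBP.572. Its libraries were highest with shCREBBP.3753 (log2 difference 0.31 ± 0.10 SE, limma adjusted p = 0.0393). This call was kept only when scramble replicate 2 or 3 was left out and was lost without any of the other 10 libraries, with a difference of 0.18 without scramble replicate 1. Without that library POLR1B was instead called lower with shCREBBP.1027 (-0.40, limma adjusted p = 0.00095).

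Among the core proteins of small nucleolar ribonucleoproteins, the same hairpin gave a rise and a fall. The C/D class guides methylation of ribosomal RNA by fibrillarin (FBL) on a scaffold that includes NOP58, and the H/ACA class guides pseudouridylation by dyskerin (DKC1) with GAR1 and NHP2. GAR1 (chromosome 4, 110736666 to 110746232) was 13.3, 16.1 and 13.6 FPKM in scramble, 23.7, 26.2 and 24.1 FPKM with shCREBBP.1027, 11.2, 12.2 and 13.3 FPKM with shCREBBP.3753 and 15.6, 12.2 and 15.6 FPKM with shCREBBP.572. Only the libraries of shCREBBP.1027 stood above all scramble libraries, at 172% of their mean (log2 difference 0.74 ± 0.11 SE, limma adjusted p = 0.000286). GAR1 was lower with shCREBBP.3753 and shCREBBP.572 than with shCREBBP.1027 by 0.96 and 0.74 (limma adjusted p = 4.2e-05 and 0.000254).

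DKC1, on a row that also carries SNORA36A and SNORA56 (chromosome X, 153991017 to 154006155), was 286, 243 and 280 FPKM in scramble, 212, 222 and 137 FPKM with shCREBBP.1027, 299, 274 and 289 FPKM with shCREBBP.3753 and 315, 241 and 258 FPKM with shCREBBP.572. Its fall with shCREBBP.1027 (log2 difference -0.53 ± 0.17 SE, limma adjusted p = 0.0256) leaned on replicate 3 of that hairpin, the lowest of the 12 libraries. Without that library the difference was -0.31 (limma adjusted p = 0.0775), and the call was also lost without scramble replicate 1 (-0.49, adjusted p = 0.057) and without scramble replicate 3 (-0.50, adjusted p = 0.0752). Quantile normalization ended it too (-0.40, limma adjusted p = 0.11). Reads of the small nucleolar RNAs in its introns could be counted on this row.

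FBL (chromosome 19, 40325093 to 40337054) was 127, 140 and 153 FPKM in scramble, 122, 136 and 131 FPKM with shCREBBP.1027, 103, 106 and 127 FPKM with shCREBBP.3753 and 130, 120 and 131 FPKM with shCREBBP.572. The groups overlapped, and the lower values with shCREBBP.3753 were called (log2 difference -0.32 ± 0.10 SE, limma adjusted p = 0.0296). That call was lost without scramble replicate 2 (-0.32, adjusted p = 0.0625), scramble replicate 3 (-0.25, adjusted p = 0.0822), shCREBBP.3753 replicate 1 (-0.26, adjusted p = 0.111) or shCREBBP.3753 replicate 2 (-0.28, adjusted p = 0.102). NHP2, which shares its interval with the opposite-strand gene RMND5B (chromosome 5, 177557962 to 177580972), was 123, 159 and 163 FPKM in scramble, 150, 169 and 160 FPKM with shCREBBP.1027, 115, 124 and 117 FPKM with shCREBBP.3753 and 139, 147 and 141 FPKM with shCREBBP.572. It was called lower with shCREBBP.3753 (log2 difference -0.30 ± 0.10 SE, limma adjusted p = 0.0414), with 1 scramble library inside the range of that hairpin. The call was kept without scramble replicate 1 or shCREBBP.1027 replicate 2 and lost without any of the other 10 libraries, with a smallest difference of -0.23. NOP58 was called with no hairpin, and its levels ran from 164 FPKM in scramble replicate 1 to 273 FPKM with shCREBBP.1027. All libraries of shCREBBP.1027 lay above all scramble libraries in NOP58.

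Of the 6 nucleolar chaperones and regulators, MYBBP1A was the one with calls that held in all alternative fits. MYBBP1A, a nucleolar protein that binds MYB and other transcription regulators (chromosome 17, 4402129 to 4458704), was 64.1, 57.1 and 54.5 FPKM in scramble, 52.4, 49.6 and 48.6 FPKM with shCREBBP.1027, 38.1, 39.4 and 33.3 FPKM with shCREBBP.3753 and 41.4, 42.4 and 36.8 FPKM with shCREBBP.572. Every hairpin library lay below every scramble library, and scramble replicate 1 was here the highest of its group. MYBBP1A fell to 63% of the scramble mean with shCREBBP.3753 (log2 difference -0.65 ± 0.09 SE, limma adjusted p = 0.000364) and to 68.7% with shCREBBP.572 (log2 difference -0.53 ± 0.09 SE, limma adjusted p = 0.00172), and was not called with shCREBBP.1027 (-0.22, limma adjusted p = 0.0752). Its values were lower with shCREBBP.3753 than with shCREBBP.1027 by 0.44 (limma adjusted p = 0.00231). In GENCODE, the protein-coding gene SPNS2 overlaps MYBBP1A on the opposite strand. The MYBBP1A row may hold RNA of SPNS2 too, and the part of each gene in the falls was not tested.

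Apart from the row named WDR74, the most abundant genes of the list belong to this class. NPM1, a histone and ribosomal protein chaperone, ran from 1288 to 1794 FPKM over the 12 libraries, and NCL, nucleolin, from 507 to 919 FPKM. In both, scramble replicate 1 was the lowest of all 12 libraries and the other scramble libraries the highest. Neither was called with any hairpin over all libraries. Without scramble replicate 1, NCL was called lower with each hairpin (-0.40, -0.39 and -0.35; limma adjusted p = 0.00203, 0.00358 and 0.00723), as was NPM1 (-0.25, -0.23 and -0.30; limma adjusted p = 0.0176, 0.0361 and 0.0125). LYAR, a nucleolar zinc-finger protein, was 83.7 FPKM in scramble replicate 1 against 149 and 142 FPKM in the others. It was not called over all libraries and was called lower with each hairpin when that library was left out (-0.37, -0.37 and -0.60; limma adjusted p = 0.0173, 0.0221 and 0.0023). NOLC1, a chaperone of small nucleolar ribonucleoproteins with levels of 142 to 198 FPKM, was called lower with shCREBBP.1027 (log2 difference -0.28 ± 0.09 SE, limma adjusted p = 0.0356). Its call was lost without scramble replicate 2 or 3, without any library of shCREBBP.1027, or without shCREBBP.3753 replicate 2, with a smallest difference of -0.21. GNL3, nucleostemin, ran from 119 to 183 FPKM and was called with no hairpin. Without scramble replicate 1, NOLC1 was also called lower with shCREBBP.3753 (-0.34, limma adjusted p = 0.00275) and shCREBBP.572 (-0.26, limma adjusted p = 0.0128), and GNL3 with shCREBBP.572 (-0.32, limma adjusted p = 0.0438).

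Of the 9 genes of 40S assembly, 3 were lower and 1 higher with shCREBBP.1027, 2 lower with shCREBBP.3753 and 2 lower with shCREBBP.572. Of all rows, 22.7%, 13.2% and 10.8% were lower in that order, and 16.5%, 16.1% and 8.99% higher. UTP20, a component of the complex that cuts the precursor of the small subunit's RNA (chromosome 12, 101673905 to 101780400) was 30.5, 30.7 and 28.8 FPKM in scramble, 27.4, 24.8 and 25.5 FPKM with shCREBBP.1027, 20.5, 22.7 and 19.7 FPKM with shCREBBP.3753 and 22.7, 21.8 and 20.1 FPKM with shCREBBP.572. All 9 hairpin libraries lay below all 3 scramble libraries, with those of shCREBBP.1027 in between. It fell with shCREBBP.3753 (log2 difference -0.50 ± 0.08 SE, limma adjusted p = 0.000717) and with shCREBBP.572 (log2 difference -0.46 ± 0.08 SE, limma adjusted p = 0.00151), and by a smaller amount with shCREBBP.1027 (log2 difference -0.21 ± 0.08 SE, limma adjusted p = 0.0495). UTP20 was lower with shCREBBP.3753 than with shCREBBP.1027 by 0.30 (limma adjusted p = 0.00897) and lower with shCREBBP.572 by 0.26 (limma adjusted p = 0.0178). The call with shCREBBP.1027 was lost without scramble replicate 1 or 2, shCREBBP.1027 replicate 2 or 3, shCREBBP.3753 replicate 1 or 3, or shCREBBP.572 replicate 1 or 2, with a smallest difference of -0.18 among these fits. Median-of-ratios scaling (-0.17, limma adjusted p = 0.131) and quantile normalization (-0.14, limma adjusted p = 0.214) also ended it. It was kept in 7 of 21 alternative fits.

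RRP12, an export and assembly factor (chromosome 10, 99116289 to 99161127), was 28.4, 29.1 and 27.2 FPKM in scramble, 25.7, 27.7 and 23.9 FPKM with shCREBBP.1027, 20.7, 22.3 and 20.2 FPKM with shCREBBP.3753 and 25.4, 24.9 and 23.5 FPKM with shCREBBP.572. Its libraries of shCREBBP.3753 were the 3 lowest of the 12 (log2 difference -0.41 ± 0.07 SE, limma adjusted p = 0.00185). TSR1, a late assembly factor of the small subunit (chromosome 17, 2207248 to 2240678), was 41.4, 55.9 and 52.9 FPKM in scramble, 35.3, 36.2 and 33.9 FPKM with shCREBBP.1027, 46, 47.2 and 49.7 FPKM with shCREBBP.3753 and 38.8, 38.3 and 43.3 FPKM with shCREBBP.572. TSR1 fell with shCREBBP.1027 to 70.2% of the scramble mean (log2 difference -0.49 ± 0.10 SE, limma adjusted p = 0.00296), with no overlap. It was lower with shCREBBP.1027 than with shCREBBP.3753, which exceeded it by 0.43 (limma adjusted p = 0.00587). In GENCODE 29, SRR and SGSM2 overlap TSR1 on the opposite strand, and SNORD91A and SNORD91B on the same strand. The TSR1 row may hold their RNA too.

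NAT10, which acetylates cytidines of small-subunit RNA, shares its row with its neighbour CAPRIN1 (chromosome 11, 34073118 to 34172513), so the values belong to both. The row held 178, 208 and 199 FPKM in scramble, 144, 144 and 137 FPKM with shCREBBP.1027, 186, 192 and 186 FPKM with shCREBBP.3753 and 165, 159 and 171 FPKM with shCREBBP.572. It fell with shCREBBP.1027 (log2 difference -0.46 ± 0.07 SE, limma adjusted p = 0.000483) and was called lower with shCREBBP.572 (log2 difference -0.23 ± 0.07 SE, limma adjusted p = 0.041), both without overlap with scramble. The call with shCREBBP.572 was kept without scramble replicate 1 and lost without any of the other 11 libraries, with a smallest difference of -0.19.

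BYSL, bystin (chromosome 6, 41888965 to 41901079), went the other way, at 14.1, 18.1 and 16.6 FPKM in scramble, 20.2, 23.3 and 21.7 FPKM with shCREBBP.1027, 14.7, 16.6 and 14.6 FPKM with shCREBBP.3753 and 15.4, 17.7 and 17.5 FPKM with shCREBBP.572. It rose with shCREBBP.1027 (log2 difference 0.40 ± 0.10 SE, limma adjusted p = 0.00749), whose libraries lay above all others. BYSL was lower with shCREBBP.3753 than with shCREBBP.1027 by 0.48 (limma adjusted p = 0.00257). The other 4 genes of this class were called with no hairpin against scramble. In WDR43, all libraries of shCREBBP.1027 lay above all scramble libraries. RRP9, a protein of the U3 particle, ran from 44.2 to 80 FPKM, WDR43 from 85.3 to 136 FPKM, RCL1 from 6.87 to 14.8 FPKM and NOB1, the nuclease that trims the end of small-subunit RNA, from 50.1 to 71.6 FPKM. RRP9 was nevertheless lower with shCREBBP.3753 than with shCREBBP.1027 by 0.57 (limma adjusted p = 0.00587). With scramble replicate 1 left out, RRP9 was called lower with shCREBBP.3753 (-0.44, limma adjusted p = 0.0111), and WDR43, NOB1 and TSR1 with shCREBBP.572 (-0.27, -0.36 and -0.43; limma adjusted p = 0.0217, 0.00636 and 0.00112).

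The 11 genes of 60S assembly gave 4 falls with shCREBBP.1027, 3 falls with shCREBBP.3753, 2 falls with shCREBBP.572 and no rise. Of all rows, 22.7%, 13.2% and 10.8% were lower in that order, and 16.5%, 16.1% and 8.99% higher. The WDR74 row, which cannot be read as that gene's messenger RNA, is 1 of the 4 falls with shCREBBP.1027. DDX21, an RNA helicase that acts on ribosomal RNA synthesis and on processing of its precursor (chromosome 10, 70714946 to 70745408), whose promoter is printed above, had the largest fall of the 35 genes. It was 202, 268 and 263 FPKM in scramble, 170, 178 and 159 FPKM with shCREBBP.1027, 220, 225 and 235 FPKM with shCREBBP.3753 and 112, 111 and 127 FPKM with shCREBBP.572. The libraries of shCREBBP.572 were the lowest and those of shCREBBP.1027 the next, without overlap with scramble, while those of shCREBBP.3753 lay inside the scramble range. DDX21 fell to 47.8% of the scramble mean with shCREBBP.572 (log2 difference -1.05 ± 0.11 SE, limma adjusted p = 6.8e-05) and to 69.1% with shCREBBP.1027 (log2 difference -0.52 ± 0.11 SE, limma adjusted p = 0.00268). With shCREBBP.3753 the difference was -0.10 (limma adjusted p = 0.52), and it was called at -0.23 without scramble replicate 1 (limma adjusted p = 0.0328), below whose value none of that hairpin's libraries lay. The hairpins differed: shCREBBP.572 was lower than shCREBBP.3753 by 0.95 (limma adjusted p = 6.2e-05) and lower than shCREBBP.1027 by 0.53 (limma adjusted p = 0.00213). Against scramble both calls were kept in all 21 alternative fits.

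BOP1, PES1 and WDR12 form the PeBoW complex, which matures the RNAs of the large subunit, and they were not called together. BOP1 (chromosome 8, 145486056 to 145515120) was 63.4, 73.3 and 77.1 FPKM in scramble, 46.4, 43 and 42.1 FPKM with shCREBBP.1027, 46.4, 47.8 and 45.1 FPKM with shCREBBP.3753 and 59, 65.5 and 56.5 FPKM with shCREBBP.572. It fell to 61.5% of the scramble mean with shCREBBP.1027 (log2 difference -0.69 ± 0.09 SE, limma adjusted p = 9.8e-05) and to 65.2% with shCREBBP.3753 (log2 difference -0.60 ± 0.09 SE, limma adjusted p = 0.000475), without overlap, and the values of shCREBBP.572 overlapped scramble. BOP1 was higher with shCREBBP.572 than with shCREBBP.1027 by 0.45 (limma adjusted p = 0.00141) and than with shCREBBP.3753 by 0.37 (limma adjusted p = 0.00652). PES1 ran from 111 FPKM in scramble replicate 1 to 199 FPKM with shCREBBP.1027 and WDR12 from 28.6 to 45.4 FPKM, and neither was called with any hairpin against scramble. PES1 was called lower with shCREBBP.3753 (-0.30, limma adjusted p = 0.00663) and with shCREBBP.572 (-0.33, limma adjusted p = 0.00436) once scramble replicate 1 was left out. BOP1 was then called with all 3 hairpins, at -0.32 with shCREBBP.572 (limma adjusted p = 0.00892).

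NOP2, a methyltransferase of large-subunit RNA (chromosome 12, 6666035 to 6677530), was 68.4, 80.7 and 74.9 FPKM in scramble, 61.7, 60.6 and 60.2 FPKM with shCREBBP.1027, 58.6, 65.5 and 62.6 FPKM with shCREBBP.3753 and 61.1, 67 and 63.4 FPKM with shCREBBP.572. Every hairpin library lay below every scramble library, and the fall was called with shCREBBP.1027 (log2 difference -0.29 ± 0.07 SE, limma adjusted p = 0.0101) and with shCREBBP.3753 (log2 difference -0.26 ± 0.07 SE, limma adjusted p = 0.0239). NOP2 was also called with shCREBBP.572 without scramble replicate 1 (-0.28, limma adjusted p = 0.00871). The call with shCREBBP.3753 was lost without scramble replicate 2 (-0.20, adjusted p = 0.081), without shCREBBP.3753 replicate 1 (-0.22, adjusted p = 0.094) and without its replicate 3 (-0.26, adjusted p = 0.0609). MRTO4, which resembles the ribosomal stalk protein and assembles the stalk's site (chromosome 1, 19541546 to 19587857), was 52.8, 58.7 and 55.2 FPKM in scramble, 60.7, 67.3 and 56.7 FPKM with shCREBBP.1027, 42.6, 46.1 and 44.4 FPKM with shCREBBP.3753 and 54.7, 55.5 and 56.4 FPKM with shCREBBP.572. Its 3 libraries of shCREBBP.3753 were the lowest of the 12 (log2 difference -0.32 ± 0.07 SE, limma adjusted p = 0.00843), and the other hairpins overlapped scramble. NIP7, a partner of the pre-60S particle (chromosome 16, 69345287 to 69377013), was 28.5, 35.8 and 32 FPKM in scramble, 34.6, 40.2 and 31.2 FPKM with shCREBBP.1027, 31.1, 32.2 and 30.4 FPKM with shCREBBP.3753 and 24.8, 22.7 and 21.1 FPKM with shCREBBP.572. NIP7 fell with shCREBBP.572 (log2 difference -0.47 ± 0.11 SE, limma adjusted p = 0.00964), the only group without overlap, and this call was lost in the fit of the 2 groups alone (limma adjusted p = 0.0533). In GENCODE 29, EMC1 overlaps MRTO4 and COG8 overlaps NIP7, each on the opposite strand. Both rows may hold RNA of these genes too.

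The row named WDR74 (chromosome 11, 62600369 to 62609272) cannot be read as that gene's messenger RNA, since its interval also holds RNU2-2P, a small nuclear RNA gene on the same strand in GENCODE 29. It had the highest values of the list, at 4109, 5430 and 6122 FPKM in scramble, 2889, 3143 and 2287 FPKM with shCREBBP.1027, 6038, 6340 and 8272 FPKM with shCREBBP.3753 and 5227, 5215 and 5636 FPKM with shCREBBP.572. The row fell with shCREBBP.1027 (log2 difference -0.91 ± 0.18 SE, limma adjusted p = 0.00246), a call lost with no filter on low values (limma adjusted p = 0.163). The other 3 genes of this class, NOP16 (62.8 to 97.4 FPKM), RRS1 (25.8 to 40.1 FPKM) and the helicase gene DDX18 (73.6 to 109.3 FPKM), were called with no hairpin over all libraries. NOP16 and DDX18 were called lower with each hairpin when scramble replicate 1 was left out, by 0.31, 0.22 and 0.50 for NOP16 and 0.40, 0.37 and 0.29 for DDX18. RRS1 was then called lower with shCREBBP.3753 (-0.33, limma adjusted p = 0.0137) and with shCREBBP.572 (-0.41, limma adjusted p = 0.00505).

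Groups without overlap were also counted. With shCREBBP.1027, 11 of the 35 genes had all 3 libraries below all scramble libraries (26% of all rows did) and 5 had all above (21.1% of all rows). With shCREBBP.3753 the numbers were 9 below (18.3% of all rows) and 2 above (25%), and with shCREBBP.572 they were 9 below (15.6%) and 0 above (16.6%). RRP12, NOP2 and RRS1 were among the 9 with shCREBBP.572 although not called there. MYBBP1A with shCREBBP.1027 and GAR1 with shCREBBP.3753 were also below all scramble libraries without a call. NOP58 and WDR43 with shCREBBP.1027 were above all of them without a call.

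Between hairpins, 22 of the 35 genes differed by the F test, where 56.4% of all rows did. Against shCREBBP.1027, shCREBBP.3753 was lower in 11 genes (15.3% of all rows) and higher in 7 (25.3%), and shCREBBP.572 was lower in 11 (17.6%) and higher in 6 (23.9%). Against shCREBBP.3753, shCREBBP.572 was lower in 4 (18%) and higher in 4 (14.7%). The largest difference was that of the WDR74 row, 1.31 higher with shCREBBP.3753 than with shCREBBP.1027 (limma adjusted p = 0.0002). Of these calls, 15 of 18, 7 of 17 and 4 of 8 were kept in all alternative fits. The number called between shCREBBP.572 and shCREBBP.1027 fell from 17 to 11 without shCREBBP.1027 replicate 1 or 2 and to 10 without shCREBBP.572 replicate 1. Between shCREBBP.572 and shCREBBP.3753 it was 16 without scramble replicate 1, 4 without shCREBBP.3753 replicate 3 and 5 without shCREBBP.572 replicate 1 or 2, against 8 with all libraries. Calls over all rows moved the same way in these fits. Between shCREBBP.572 and shCREBBP.1027 they went from 4876 to 4076, 4074 and 4130. Between shCREBBP.572 and shCREBBP.3753 they went from 3837 to 4948, 2917, 3029 and 3050.

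Other genes of the same pathways were taken from textbook lists. Of 26 tested further genes of RNA polymerases I and III, 3 were lower and 4 higher with shCREBBP.1027, 3 lower and 2 higher with shCREBBP.3753, and 2 lower and 1 higher with shCREBBP.572. Beside them, 22.7% of all rows were lower and 16.5% higher, then 13.2% and 16.1%, and 10.8% and 8.99%, in the same order. RRN3, which makes RNA polymerase I competent to start, rose with shCREBBP.1027 (0.90, limma adjusted p = 0.000172) from 23.7 ± 4.24 FPKM (SD, n = 3) in scramble to 44.7 ± 3.33 FPKM. BRF2, a factor of RNA polymerase III, rose with the same hairpin (1.25, limma adjusted p = 0.00041). Neither was called with the other hairpins. GTF3A, which starts transcription of the 5S RNA gene, rose with shCREBBP.3753 (0.49, limma adjusted p = 0.0164) and with shCREBBP.572 (0.51, limma adjusted p = 0.019). These differences were 0.31 and 0.33 without scramble replicate 1. The calls of GTF3A were lost without shCREBBP.3753 replicate 2 (0.47, adjusted p = 0.0546) and without shCREBBP.572 replicate 1 or 2 (0.51 and 0.48, adjusted p = 0.0545 and 0.0633). The polymerase I subunit CD3EAP was also called lower with shCREBBP.1027 (-0.39, limma adjusted p = 0.025), a call lost in 7 of 21 alternative fits, and fell with shCREBBP.3753 (-0.45, limma adjusted p = 0.0167), a call lost without scramble replicate 2 or 3 or without shCREBBP.3753 replicate 1 or 3 (smallest difference -0.37). TWISTNB, another subunit, was called lower with shCREBBP.572 (-0.33, limma adjusted p = 0.0494), and this call was kept only without scramble replicate 1 or shCREBBP.572 replicate 3 (smallest difference -0.26). Without scramble replicate 1 the counts were 6 lower and 3 higher, 3 lower and 2 higher, and 5 lower and 1 higher. Among the 11757 rows, 3166 were then lower and 1959 higher, 1865 and 1706, and 1845 and 1140, in the same order. The split changed with scaling, to 3 lower and 6 higher with shCREBBP.1027 and 2 lower and 3 higher with shCREBBP.572 under quantile normalization, and to 5 lower and 2 higher with shCREBBP.3753 under median-of-ratios scaling. All rows then gave 2457 lower and 2723 higher, 1365 and 1474, and 1869 and 1917, in that order.

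Of 49 further genes of 40S assembly, 8 were lower and 10 higher with shCREBBP.1027, 5 lower and 2 higher with shCREBBP.3753, and 6 lower and none higher with shCREBBP.572. The shares of all rows, in the same order, were 22.7% lower and 16.5% higher, 13.2% and 16.1%, and 10.8% and 8.99%. TBL3, a protein of the complex around U3, fell with shCREBBP.3753 (-0.86, limma adjusted p = 7.9e-05), with shCREBBP.1027 (-0.60, limma adjusted p = 0.000412) and with shCREBBP.572 (-0.49, limma adjusted p = 0.00345). NOC4L, a partner of small-subunit precursors, fell with shCREBBP.3753 (-0.80, limma adjusted p = 0.000151) and with shCREBBP.1027 (-0.59, limma adjusted p = 0.000534), and was -0.26 with shCREBBP.572 (limma adjusted p = 0.0814). RRP7A fell with shCREBBP.572 (-0.65, limma adjusted p = 0.00119) and with shCREBBP.1027 (-0.43, limma adjusted p = 0.0064). RRP8, a methyltransferase of ribosomal RNA, fell with shCREBBP.1027 (-0.77, limma adjusted p = 0.00165), as did the row shared by PWP2 and C21orf33 (-0.90, limma adjusted p = 3.8e-05). The counts without scramble replicate 1 were 15 lower and 8 higher, 13 lower and 1 higher, and 17 lower and none higher. With quantile normalization they were 7 lower and 16 higher with shCREBBP.1027 and 11 lower and 2 higher with shCREBBP.572.

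Of 55 further genes of 60S assembly, 10 were lower and 9 higher with shCREBBP.1027, 13 lower and 3 higher with shCREBBP.3753, and 12 lower and 2 higher with shCREBBP.572. The shares of all rows, in the same order, were 22.7% lower and 16.5% higher, 13.2% and 16.1%, and 10.8% and 8.99%. LSG1, a GTPase that acts on the 60S subunit in the cytoplasm, rose with shCREBBP.1027 from 36.2 ± 6.15 FPKM (SD, n = 3) in scramble to 84.7 ± 1.87 FPKM (1.22, limma adjusted p = 8.3e-06), as did RSL24D1, which holds the place of a ribosomal protein on the precursor (0.98, limma adjusted p = 0.00031). RSL24D1 was also called higher with shCREBBP.3753 (0.55, limma adjusted p = 0.0152) and shCREBBP.572 (0.52, limma adjusted p = 0.0264), at 0.36 and 0.34 without scramble replicate 1, and these calls were lost in 4 and 5 of 21 alternative fits, whereas LSG1 was not called with either. SBDS, which helps to free the subunit of its last assembly factor and is mutated in Shwachman-Diamond syndrome, fell with shCREBBP.572 (-0.80, limma adjusted p = 0.000166), rose with shCREBBP.1027 (0.57, limma adjusted p = 0.000587) and was 0.002 with shCREBBP.3753 (limma adjusted p = 0.991). RRP1B, a nucleolar protein that also targets protein phosphatase, fell with shCREBBP.3753 (-0.64, limma adjusted p = 0.000182), with shCREBBP.572 (-0.78, limma adjusted p = 6.7e-05) and with shCREBBP.1027 (-0.38, limma adjusted p = 0.0028). NOC2L, a nucleolar protein that inhibits histone acetylation, fell with shCREBBP.3753 (-0.69, limma adjusted p = 6.2e-05) and with shCREBBP.572 (-0.34, limma adjusted p = 0.00613), the second lost in the fit of the 2 groups alone. Leaving out scramble replicate 1 gave 17 lower and 8 higher, 22 lower and 3 higher, and 19 lower and 3 higher. With shCREBBP.1027 they were 8 lower and 12 higher under median-of-ratios scaling and 8 lower and 16 higher under quantile normalization, which gave 19 lower and 8 higher with shCREBBP.3753.

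Of 26 partners and turnover factors of MYC, 8 were lower and 5 higher with shCREBBP.1027, 6 lower and 1 higher with shCREBBP.3753, and 3 lower and 1 higher with shCREBBP.572. The shares of all rows, in the same order, were 22.7% lower and 16.5% higher, 13.2% and 16.1%, and 10.8% and 8.99%. MXI1, which competes with MYC for MAX, fell with shCREBBP.1027 (-0.84, limma adjusted p = 0.000447), while MLXIP, a relative that pairs with MLX, rose (0.80, limma adjusted p = 0.0112, and 0.52 without scramble replicate 3). MLXIP was -0.54 with shCREBBP.3753 (limma adjusted p = 0.0764) and was called lower there without scramble replicate 3 (-0.81, limma adjusted p = 0.00562). MNT, another competitor for MAX, fell with shCREBBP.3753 (-0.58, limma adjusted p = 0.0264). This call was lost without scramble replicate 1 (-0.36, adjusted p = 0.0588) and without shCREBBP.3753 replicate 2 or 3 (-0.54 and -0.52, adjusted p = 0.079 and 0.09). KIAA1524, whose product CIP2A protects MYC protein from dephosphorylation, fell with the same hairpin (-0.64, limma adjusted p = 0.000505) and was called lower with shCREBBP.1027 (-0.32, limma adjusted p = 0.0164), a call lost in 4 of 21 alternative fits. With shCREBBP.572, AURKA, a kinase that stabilises MYC family proteins, fell (-0.84, limma adjusted p = 0.000312) and FBXW7, which marks MYC for degradation, rose (0.55, limma adjusted p = 0.00229). With shCREBBP.1027, where MYC was not called, AURKA also fell (-0.69, limma adjusted p = 0.000436) and FBXW7 also rose (0.44, limma adjusted p = 0.00405). With shCREBBP.3753 AURKA was -0.34 (limma adjusted p = 0.0313) and FBXW7 0.29 (limma adjusted p = 0.0405), calls lost in 6 and 11 of 21 alternative fits. With scramble replicate 1 left out there were 10 lower and 6 higher, 7 lower and none higher, and 5 lower and 2 higher, and under both other scalings there were 3 lower and 2 higher with shCREBBP.572.

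Among 47 tested classical MYC targets outside ribosome production, 24 were lower and 2 higher with shCREBBP.1027, 17 lower and 2 higher with shCREBBP.3753, and 9 lower and 1 higher with shCREBBP.572, with median differences of -0.30, -0.15 and -0.15. Those medians were -0.32, -0.26 and -0.24 without scramble replicate 1. Over all libraries the shares of all rows were 22.7% lower and 16.5% higher, 13.2% and 16.1%, and 10.8% and 8.99%. TERT, the catalytic subunit of telomerase, was 33.8 ± 5.64 FPKM (SD, n = 3) in scramble, 7.65 ± 0.595 FPKM with shCREBBP.1027, 11.4 ± 1.59 FPKM with shCREBBP.3753 and 13.7 ± 2.65 FPKM with shCREBBP.572, and fell each time (-2.00, -1.49 and -1.25; limma adjusted p = 3.3e-06, 6.2e-05 and 0.000222). IMPDH1, an enzyme of guanine nucleotide synthesis, fell with shCREBBP.3753 (-1.75, limma adjusted p = 2.5e-06) and with shCREBBP.572 (-1.18, limma adjusted p = 2.2e-05), and was called lower with shCREBBP.1027 (-0.33, limma adjusted p = 0.0259), a call lost in 6 of 21 alternative fits. The list includes CDKN1A, GADD45A and NDRG1, which MYC is known to repress. CDKN1A, the inhibitor of cell cycle kinases, fell with shCREBBP.1027 (-1.54, limma adjusted p = 2e-06), where MYC itself was not called, and with shCREBBP.572 (-0.90, limma adjusted p = 0.000222), where MYC was called lower. It rose with shCREBBP.3753 (0.77, limma adjusted p = 0.000476), where MYC was lowest, from 27.7 FPKM in scramble to 47.7 FPKM. The part of MYC in these changes was not tested, and GADD45A and NDRG1 fell outside the rule for named genes. The counts of this list without scramble replicate 1 were 30 lower and 3 higher, 24 lower and 3 higher, and 20 lower and 3 higher. Under quantile normalization 23 were lower and 11 higher with shCREBBP.1027 and 13 lower and 6 higher with shCREBBP.572.

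**Figure D4:**
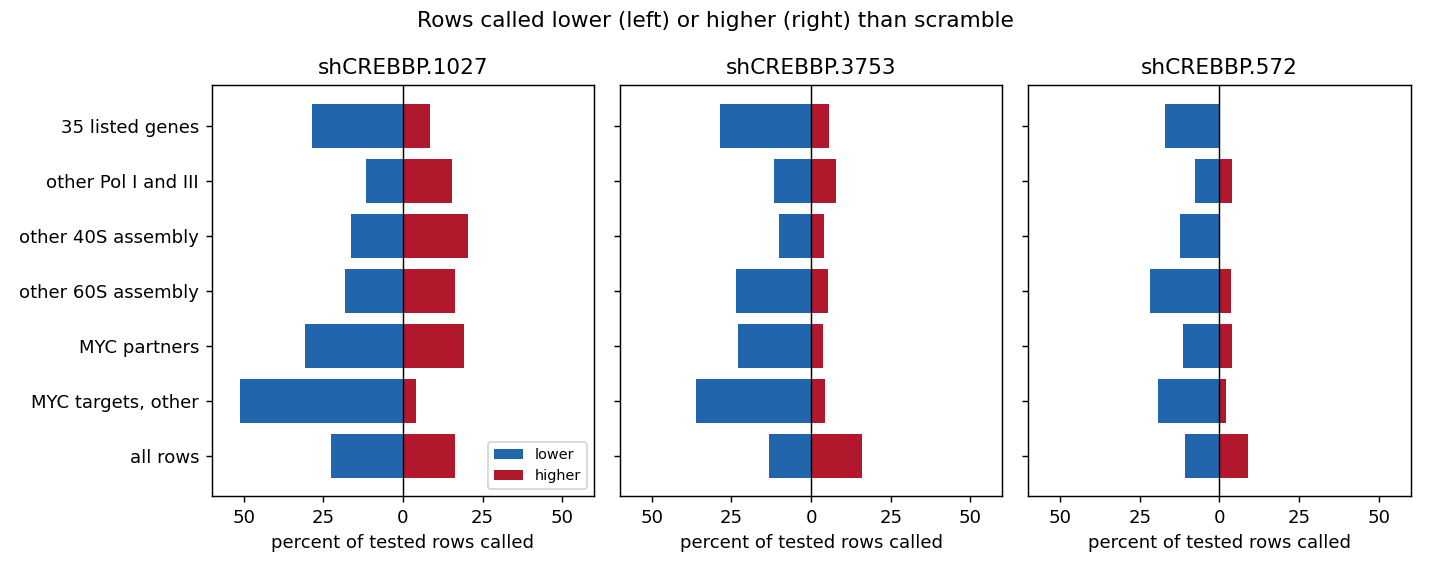
Percent of tested genes called lower (blue, to the left) or higher (red, to the right) than scramble at a limma adjusted p under 0.05, for the 35 genes, 5 further lists and all rows, one panel per hairpin. With shCREBBP.1027, 10 of the 35 genes and 24 of the 47 classical MYC targets are lower, beside 22.7% of all rows.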

How the data were processed

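RNA of 12 MD901 libraries, 3 in each of 4 groups, was used. The table the authors deposited holds 1 value per assembled locus and library and names no unit; the values were taken as FPKM, since Cufflinks is among the tools in the submitters' processing notes, with CASAVA 1.8, TopHat2 and the build hg19. Neither the annotation nor strand assignment is given in the sources used here, so overlapping and antisense genes cannot be separated. Depth in reads is unknown, no interval from counts can be given, and low values did not resolve into whole reads.

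Values were tested as log2(FPKM + 1) over the 11757 rows whose mean reached 1 FPKM, with group means and a variance trend in limma 3.58.1 (R 4.3.3), after a check on simulated data. The pseudocount of 1 understates changes of low rows. Alternatives changed the pseudocount, filter, scaling, variance model and samples, and left out each library. The members and lists were chosen with earlier results of these data known. The rule for named genes took MYC, all members (per library for the 20 called members with the smallest p), the 2 called genes with the largest change per further list and hairpin, CREBBP and EP300. NOLC1 was called but fell outside the 20. Coordinates are hg19, counted from 1, and span the assembled locus.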

Additional observations from a re-analysis of the deposited data

Results flagged for a closer look

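GAR1 stood on opposite sides of all scramble libraries in 2 hairpin groups, higher with shCREBBP.1027 and lower, though not called, with shCREBBP.3753. The highest library of shCREBBP.3753, at 13.27 FPKM, lay just under the lowest scramble library, at 13.35 FPKM. The difference itself was tested: shCREBBP.3753 minus shCREBBP.1027 was -0.96 on the log2 scale (limma adjusted p = 4.2e-05), with all 3 libraries of the first below all 3 of the other, and it was called in all 21 alternative fits.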

How the results depend on the processing

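No call reversed; CREBBP with shCREBBP.572, not called, turned from -0.14 to 0.19 without scramble replicate 1 and 0.11 with array weights, and was -0.37 without scramble replicate 3. For the 31 calls of single genes and MYC with shCREBBP.1027, 329 of 384 fits without 1 library and 261 of 288 under other settings stayed on their side of the threshold. With no filter on low values, 6 genes were lower with shCREBBP.1027 and 1 higher with shCREBBP.3753, which also had 1 higher with no variance trend. Array weights, which gave scramble replicate 1 a weight of 0.136, made 18 genes lower with shCREBBP.1027, 22 lower with shCREBBP.3753 and 23 lower with shCREBBP.572, and 19 called between the last 2; lower calls over all rows were then 30.7%, 20.8% and 18.2%, against 22.7%, 13.2% and 10.8%. Median-of-ratios scaling gave 10 higher with shCREBBP.1027, 11 lower with shCREBBP.572 and 14 called between shCREBBP.572 and shCREBBP.3753; quantile normalization gave 11, 10 and 15, and 1 higher with shCREBBP.572. With only the 2 groups compared, 6 were lower and 1 higher with shCREBBP.3753, and 15 were called between shCREBBP.572 and shCREBBP.3753. Between that pair, all rows gave 5271 calls with array weights, 4122 and 4250 with the 2 scalings and 4587 with only the 2 groups. The main fit gave 3837. Leaving out 1 library gave 7 to 14 lower and 3 to 6 higher with shCREBBP.1027, 7 to 20 lower and 1 to 2 higher with shCREBBP.3753, and 5 to 21 lower and 0 higher with shCREBBP.572. It gave 17 to 21, 10 to 22 and 4 to 16 called between the pairs of hairpins, and 18 to 27 by the F test. Over all rows the same counts were 3888 to 5791, 4074 to 5897, 2917 to 4948 and 5844 to 7766. The cause was not tested.

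The labels do not say whether replicate numbers pair the libraries, and the values did not settle it. Same-numbered libraries of different groups deviated together with correlations across genes of -0.06 to 0.127, and 7 of 12 libraries were most like a library with their own number. With the replicate block, 11 genes were lower and 3 higher with shCREBBP.1027, 10 lower and 2 higher with shCREBBP.3753, and 6 lower and 0 higher with shCREBBP.572. MYBBP1A with shCREBBP.1027 and NOP2 with shCREBBP.572 were then called, and NAT10 with shCREBBP.572 was not.

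The unknown depth limits low rows most. With 3 libraries a group and control libraries that differ among themselves more than those of any hairpin do, counts against scramble move with the control library left out.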
